A study of Homo sapiens with 12 samples.

Results

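The heat shock chaperones that work outside the endoplasmic reticulum were followed through an m7G AlkAniline-Seq experiment by the Ensembl gene IDs of 10 genes. They were HSP90AA1 (ENSG00000080824), HSP90AB1 (ENSG00000096384), HSPA8 (ENSG00000109971), HSPA1A (ENSG00000204389), HSPH1 (ENSG00000120694), DNAJA1 (ENSG00000086061), DNAJB1 (ENSG00000132002), HSPB1 (ENSG00000106211), HSPD1 (ENSG00000144381) and HSPE1 (ENSG00000115541). All 10 IDs were found among the 18569 gene IDs of the deposited tables, with 1924 of 842183 listed positions. Libraries came from LNCaP-AI cells with a METTL1 knockdown (shMETTL1) and from the same cell line with a scrambled hairpin (shscramble). LNCaP-AI is a castration-resistant prostate cancer line kept under androgen deprivation, and METTL1 was silenced stably with lentiviral constructs. Each group had 3 replicates, and each replicate had an AlkAniline-Seq library and an input library, 12 libraries in all. METTL1 is the methyltransferase that places m7G on tRNA and inside mRNA, and the question was which m7G signals in mRNA depend on it.

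In AlkAniline-Seq, m7G is turned into a break in the RNA and the new end is sequenced, so that a modified base appears as a stack of reads starting at 1 position. HSP90 holds steroid receptors, the androgen receptor among them, in a form that can bind hormone, and it receives these clients from HSP70 and its J-protein partners. Heat shock factor HSF1 switches on most of these genes by binding head-to-head repeats of the short unit NGAAN, the heat shock element. The mitochondrial chaperonin HSPD1 and its lid HSPE1 fold imported proteins, and the small heat shock protein HSPB1 holds unfolded proteins in solution.

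AlkAniline-Seq libraries held 2474464 to 2764417 reads in shMETTL1 and 1421551 to 2624431 in shscramble, and input libraries held 2783709 to 3258499 in shMETTL1 and 3045523 to 3152800 in shscramble. Shscramble replicate 1 stood apart from the other libraries. Of the chaperone positions that were deep (at least 50 reads) in shscramble replicate 2, it shared 72 of 72, and of those deep in shscramble replicate 3 it shared 47 of 47. Between shscramble replicates 2 and 3 that share was 56.9% in one direction and 66.0% in the other, and no further pair of libraries exceeded 83.0%. This was not particular to the chaperones. Over all gene IDs shscramble replicate 1 shared 16360 of 16371 and 8624 of 8624 such positions, against 39.1% and 51.2% between shscramble replicates 2 and 3. The cause was not tested. The fitted differences in AlkAniline-Seq reads per gene, and others where stated, are therefore also given without this library. The gene IDs carry no symbol, so METTL1 and prostate markers were not looked up and neither the knockdown nor the cell type was checked here. In a bulk preparation, fewer cells that hold an mRNA and less of it per cell cannot be told apart.

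Because HSF1 sites are the feature these genes are known to share, the promoters were searched for the heat shock element in RefSeq sequence of GRCh38.p14, which is not the hg19 build of the deposited data. The windows ran from 250 bases before to 49 bases after each annotated start, and all 10 genes matched, with 16 windows. Units GAANNTTC and TTCNNGAA each read the same on both strands. The 3-unit elements GAANNTTCNNGAA and TTCNNGAANNTTC contain both 2-unit forms and are the reverse complements of each other. They occurred in 172 of 35116 RefSeq windows (0.490%) and in 5 of the 16 chaperone windows, which belong to 5 of the 10 genes. The following stretches, written 5′ to 3′ on the gene's strand with the element in capitals, come from the 4 genes whose AlkAniline-Seq reads were higher in every shMETTL1 library, and from HSPD1, which has the longest run of units. They lie in HSP90AA1 (chr14:102087114-102087138, minus strand), HSP90AB1 (chr6:44247825-44247849, plus strand), HSPA8 (chr11:123062173-123062197, minus strand), HSPA1A (chr6:31815431-31815450, plus strand) and HSPD1 (chr2:197500062-197500090, minus strand).
HSP90AA1: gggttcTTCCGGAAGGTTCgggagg
HSP90AB1: agattgTTCTGGAAGCTTCtggatt
HSPA8: ggccccTTCTGGAAGGTTCtaagat
HSPA1A: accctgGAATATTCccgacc
HSPD1: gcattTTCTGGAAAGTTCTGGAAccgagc
The elements ended 76 bases before the start site in HSP90AA1, 100 in HSP90AB1, 43 in HSPA8, 99 in HSPA1A and 228 in HSPD1. In HSPD1 both 3-unit forms overlap in a run of 18 bases. HSP90AB1 and HSPA8 each had a second 3-unit element farther upstream, and the DNAJA1 element lay just after the start. HSPA1A, DNAJB1 and HSPB1 had only the 2-unit form, which 13.5% of all windows hold. HSPH1 and HSPE1 had neither form in the window searched. Only exact units were matched, so an element with a mismatch in any unit was not counted. The HSPE1 window (chr2:197500129-197500428, plus strand) begins just past the HSPD1 stretch, so the 250-base limit left that element out for HSPE1. Whether the elements go with the changes in AlkAniline-Seq reads was not tested.

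HSP90AA1, the stress-inducible cytosolic HSP90, was the most deeply read of the 10 genes. It had 13168, 12455 and 11528 AlkAniline-Seq reads in shMETTL1, against 5499, 7992 and 2933 in shscramble. As CPM, reads scaled to a common library total with trimmed-mean factors, these were 5138, 5056 and 4924 CPM in shMETTL1 and 3023, 2997 and 2082 CPM in shscramble. The shMETTL1 libraries lay close together and above every shscramble library, with means of 5039 ± 108 CPM in shMETTL1 and 2701 ± 536 CPM in shscramble (SD, n = 3 each). The fitted log2 fold change, shMETTL1 over shscramble, was 0.90 with a standard error (SE) of 0.20, a fold of 1.87 (edgeR quasi-likelihood test, unadjusted p = 0.000374, Benjamini-Hochberg adjusted p = 0.466 over 11097 gene IDs). It did not pass the adjusted threshold of 0.05, although it ranked 8 of 11097 by p. Without shscramble replicate 1 it was 0.98 (SE 0.25, edgeR adjusted p = 0.950). DESeq2 on the same table gave 0.91 with an adjusted p of 0.0141, and edgeR without the filter on low counts gave 1.02 with an adjusted p of 3.65e-06. Both of these fits kept shscramble replicate 1. DESeq2 called 1.6% of all gene IDs tested.

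HSP90AB1, the constitutive cytosolic HSP90, had 840, 973 and 825 CPM in shMETTL1 and 632, 561 and 711 CPM in shscramble. The groups did not overlap. The log2 fold change was 0.47 (SE 0.27, unadjusted p = 0.0951, edgeR adjusted p = 0.775), and 0.46 without shscramble replicate 1.

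**Figure D1:**
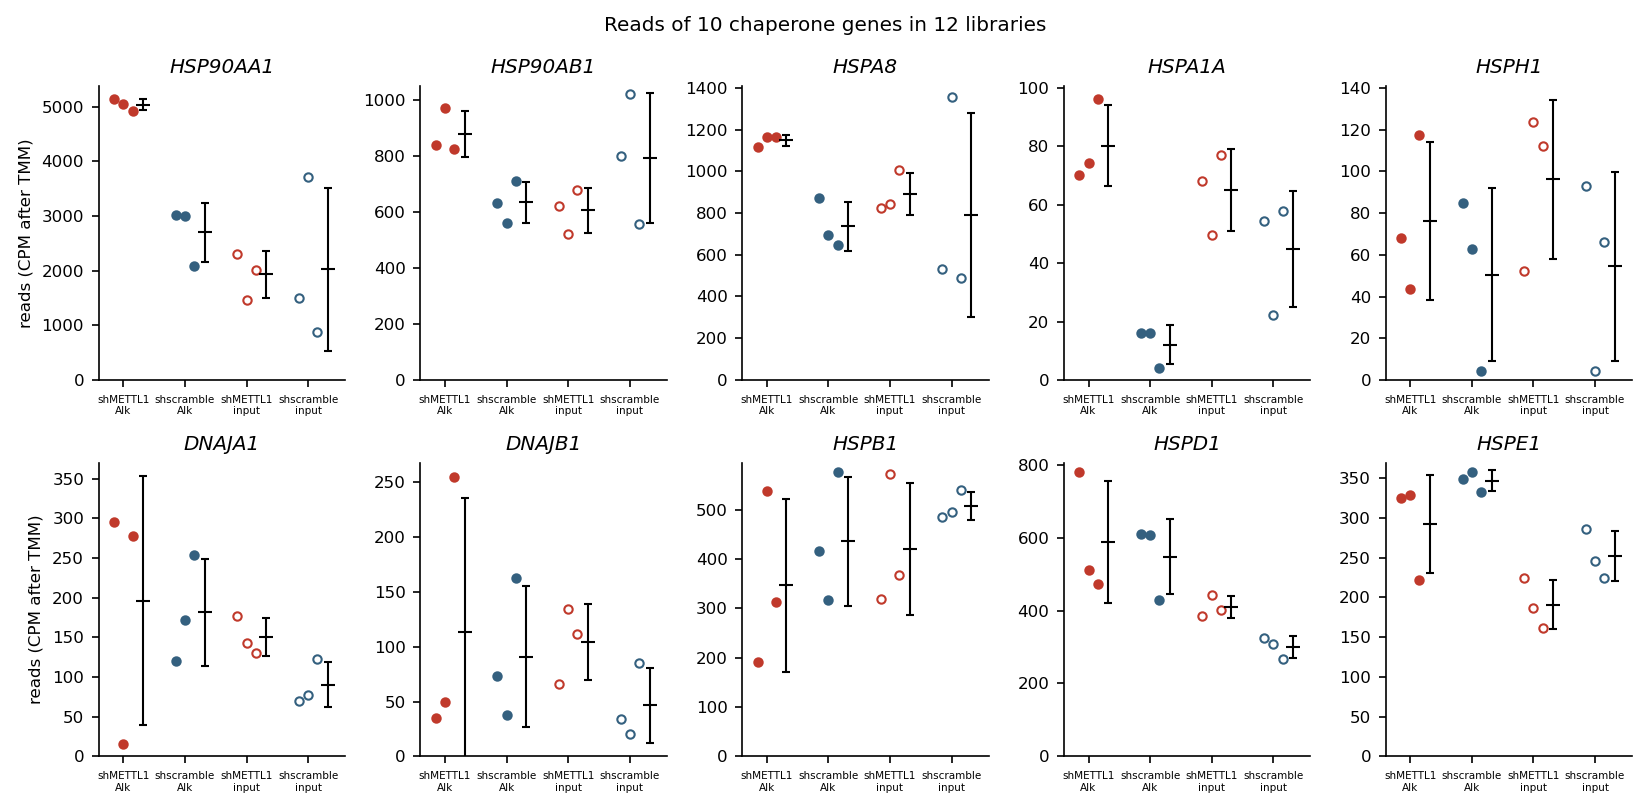
Reads in CPM after trimmed-mean scaling (vertical axes, each from 0) for the 10 genes, with AlkAniline-Seq libraries as filled and input libraries as open points, shMETTL1 in red and shscramble in blue. Bars give the mean and SD of 3 libraries; the 3 shMETTL1 AlkAniline-Seq points lie above the 3 shscramble points for HSP90AA1, HSP90AB1, HSPA8 and HSPA1A.

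HSPA8, the constitutive HSP70 that also uncoats clathrin vesicles, had 1117, 1166 and 1162 CPM in shMETTL1 and 870, 693 and 648 CPM in shscramble. Again the lowest shMETTL1 library lay above the highest shscramble library. The log2 fold change was 0.64 (SE 0.25, unadjusted p = 0.0223, edgeR adjusted p = 0.621), and 0.77 without shscramble replicate 1.

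HSPA1A, the inducible HSP70, showed the widest gap on few reads, with 180, 183 and 225 reads in shMETTL1 and 29, 43 and 6 in shscramble. In CPM these were 70.2, 74.3 and 96.1 in shMETTL1 and 15.9, 16.1 and 4.26 in shscramble. The log2 fold change was 2.71 (SE 1.04), a fold of 6.56, with an unadjusted p of 0.0186 and an edgeR adjusted p of 0.601, and it was 2.94 without shscramble replicate 1. HSPA1A is nearly identical in sequence to its neighbour HSPA1B, so reads may have been split between the pair and its level is uncertain. HSPH1, an HSP110 protein that exchanges nucleotide on HSP70, had 67.9, 43.4 and 117 CPM in shMETTL1 and 84.7, 62.6 and 4.26 CPM in shscramble. Its groups overlapped, and the log2 fold change of 0.59 had an SE of 0.95, and it was 1.17 (SE 1.23) without shscramble replicate 1.

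The J proteins, which hand clients to HSP70 and start its ATP hydrolysis, varied more between replicates than between groups. DNAJA1 had 296, 15.4 and 278 CPM in shMETTL1, against 120, 171 and 253 CPM in shscramble. DNAJB1 had 35.1, 49.9 and 255 CPM in shMETTL1, against 73.1, 37.9 and 163 CPM in shscramble. In each gene 1 shMETTL1 library lay far from the other two, replicate 2 below them in DNAJA1 and replicate 3 above them in DNAJB1. The log2 fold changes were 0.11 (SE 0.70) for DNAJA1 and 0.32 (SE 0.78) for DNAJB1, and both changed sign when single libraries were left out. Without shscramble replicate 1 they were -0.12 for DNAJA1 and 0.18 for DNAJB1. HSPB1 had 192, 537 and 312 CPM in shMETTL1 and 416, 317 and 576 CPM in shscramble, with a log2 fold change of -0.33 (SE 0.39), which was -0.37 without shscramble replicate 1.

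The mitochondrial pair did not share the pattern of the HSP90 genes, although whether the genes differ in their response was not tested. HSPD1 had 780, 512 and 472 CPM in shMETTL1 and 609, 606 and 428 CPM in shscramble, with overlapping groups and a log2 fold change of 0.10 (SE 0.31), or 0.18 without shscramble replicate 1. HSPE1 had 325, 329 and 221 CPM in shMETTL1 and 349, 358 and 333 CPM in shscramble. Every shMETTL1 library was below every shscramble library for HSPE1, by a log2 fold change of -0.25 with an SE of 0.34, and of -0.25 again without shscramble replicate 1.

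Across the 10 genes, 8 log2 fold changes were above 0 and 2 below, and their median was 0.39, beside 0.07 over all gene IDs tested. None of the 10 passed edgeR's adjusted threshold, which 0.00901% of gene IDs passed. At an unadjusted p under 0.05 there were 3 (HSP90AA1, HSPA8 and HSPA1A), all higher, where 3.84% of all gene IDs were called higher. Groups that did not overlap were seen for 4 of 10 genes in the higher direction and 1 of 10 in the lower direction, where 7.1% and 7.38% of all gene IDs did so. With 3 libraries against 3, an exact two-sided permutation test cannot go below p = 0.1, the value each of these 5 genes has. The replicates are labelled as separate samples, and the study states in general that its data came from biological replicates.

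**Figure D2:**
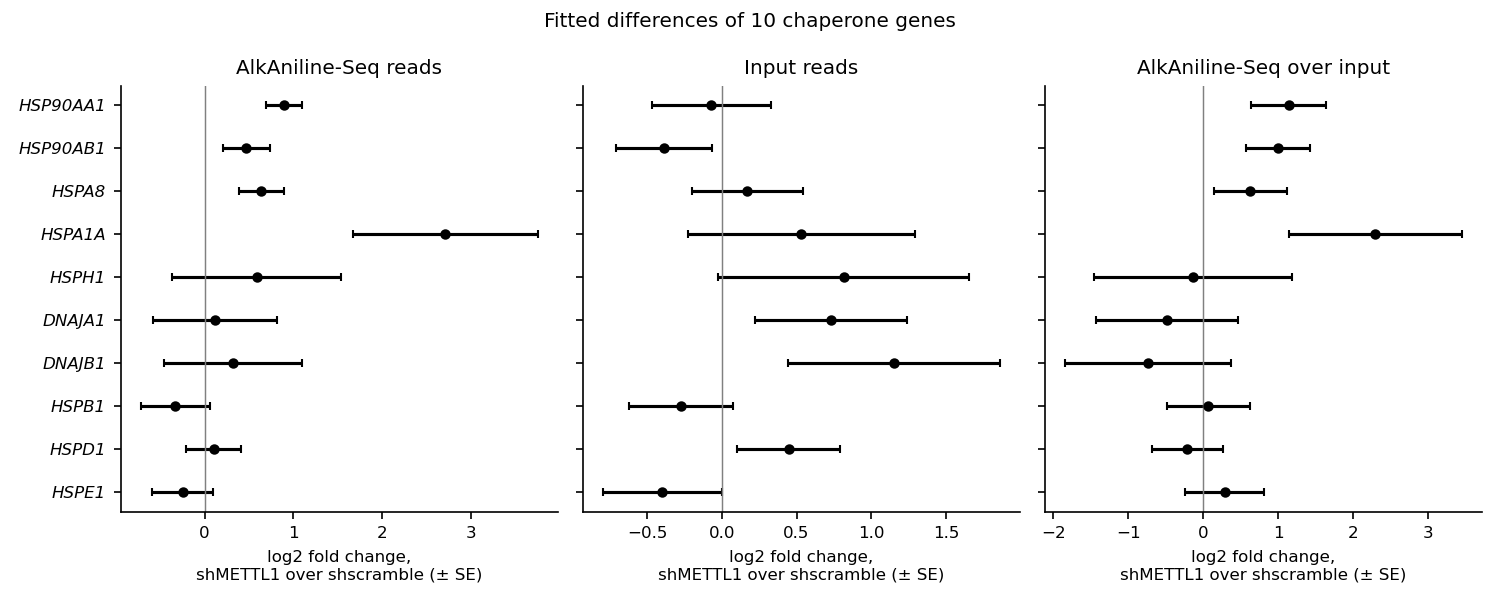
Log2 fold change with its SE (horizontal axes), shMETTL1 over shscramble, for AlkAniline-Seq reads, input reads and AlkAniline-Seq over input, with 1 row per gene. HSP90AA1 has the narrowest error in AlkAniline-Seq reads, at 0.90 with an SE of 0.20, and HSPA1A has the largest value, 2.71 with an SE of 1.04.

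The input libraries, which show where the RNA breaks and starts without enrichment, gave another order. HSP90AA1 had 2309, 1462 and 2019 input CPM in shMETTL1 and 1498, 3706 and 875 input CPM in shscramble. These groups overlapped, and shscramble input replicate 2 was far above the other two. The input log2 fold change of HSP90AA1 was -0.07 (SE 0.40) and became 0.70 without shscramble replicate 2. DNAJB1, which in HSF1 feedback sends HSP70 onto the factor, had 66.2, 135 and 111 input CPM in shMETTL1 and 34.2, 20.6 and 85.3 in shscramble, the largest input log2 fold change of the 10 (1.15, SE 0.71). Its groups overlapped.

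DNAJA1 and HSPD1 had higher input reads in every shMETTL1 library and HSPE1 lower ones. DNAJA1 had 177, 143 and 130 input CPM in shMETTL1 and 70.3, 77.6 and 123 in shscramble. HSPD1 had 384, 443 and 402 input CPM in shMETTL1 and 325, 309 and 267 in shscramble. HSPE1 had 224.1, 187 and 162 input CPM in shMETTL1 and 286, 245 and 224.5 in shscramble, with less than 1 CPM between the nearest libraries of the groups. So 2 of 10 genes had non-overlapping groups in the higher direction and 1 of 10 in the lower, where 7.64% and 5.84% of all gene IDs did. The smallest unadjusted p of the 10 was 0.123, and edgeR called no gene ID at all after adjustment (0% of 11740). Without shscramble replicate 1 and its input, the input log2 fold changes of the 10 lay between -0.41 for HSP90AB1 and 1.42 for HSPH1.

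Set against their own inputs, the 2 HSP90 genes had the smallest p-values of the 10. The change in AlkAniline-Seq over input, shMETTL1 over shscramble, was the interaction term of a fit to all 12 libraries. For HSP90AA1 the log2 difference was 1.14 (SE 0.50, edgeR unadjusted p = 0.0312, adjusted p = 0.547), and 1.28 without shscramble replicate 1 and its input. For HSP90AB1 it was 1.001 (SE 0.43, edgeR unadjusted p = 0.0287, adjusted p = 0.544), and 0.89 without that replicate. HSPA1A had a larger value, 2.30, with an SE of 1.16. These were 2 of 10 genes with an unadjusted p under 0.05, both higher, where 5.3% of gene IDs were called higher, and the adjusted threshold, which 0.00777% of gene IDs passed, was reached by none of the 10. The median of the 10 was 0.18, beside 0.24 over all gene IDs tested. That overall median depended on scaling and was -0.28 with library size alone, where HSP90AA1 was at 0.39 (SE 0.37) and HSP90AB1 at 0.40 (SE 0.35). Leaving out shscramble replicate 2 and its input put HSP90AA1 at 0.38.

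AlkAniline-Seq was also compared with input within each group. In shMETTL1 cells, HSP90AA1 had 1.30 log2 units more AlkAniline-Seq reads than input reads (SE 0.35, a fold of 2.46, edgeR unadjusted p = 0.00136, adjusted p = 0.208). With each library paired to its own input by a replicate block, this was 1.32 (SE 0.24) and passed the threshold, with an adjusted p of 0.00249. It also passed when shscramble replicate 2 (adjusted p = 0.00571) or shscramble replicate 3 (adjusted p = 0.0468) left the joint fit, with values of 1.30 in both. It did not pass without shscramble replicate 1 (adjusted p = 0.197) or without shMETTL1 replicate 1, 2 or 3 (adjusted p = 0.531, 0.855 and 0.667). With library size alone the edgeR adjusted p was 0.0505, and DESeq2 gave 0.322. In shscramble cells the HSP90AA1 value was 0.16 (SE 0.35), and it rested on single libraries. It was 0.0046 without shscramble replicate 1 but 0.91 (SE 0.27, edgeR unadjusted p = 0.00309, adjusted p = 0.281) without shscramble replicate 2. With library size alone it was 0.77 (SE 0.26, edgeR unadjusted p = 0.00773, adjusted p = 0.260), and with the replicate block 0.44 (SE 0.24). Among all gene IDs, edgeR called 0.21% within shMETTL1 and 0.536% with the block.

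HSPA1A had a value near 0 in shMETTL1 (0.21, SE 0.80) and -2.09 in shscramble (SE 0.84, edgeR unadjusted p = 0.0216, adjusted p = 0.287, and a DESeq2 adjusted p of 0.0385). Without shscramble replicate 1 and its input, the HSPA1A value in shscramble was -2.08 (SE 1.12, edgeR adjusted p = 0.522). HSP90AB1 was at 0.44 (SE 0.30) in shMETTL1 and -0.56 (SE 0.30) in shscramble, and HSPD1 was above 0 in both groups, at 0.43 (SE 0.33) in shMETTL1 and 0.64 (SE 0.33) in shscramble. None of the 10 passed edgeR's adjusted threshold within shscramble, where 0.637% of gene IDs did. DESeq2 called 569 of 12877 gene IDs within shscramble. HSPA1A was the only one of the 10 with an unadjusted p under 0.05 there.

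**Figure D3:**
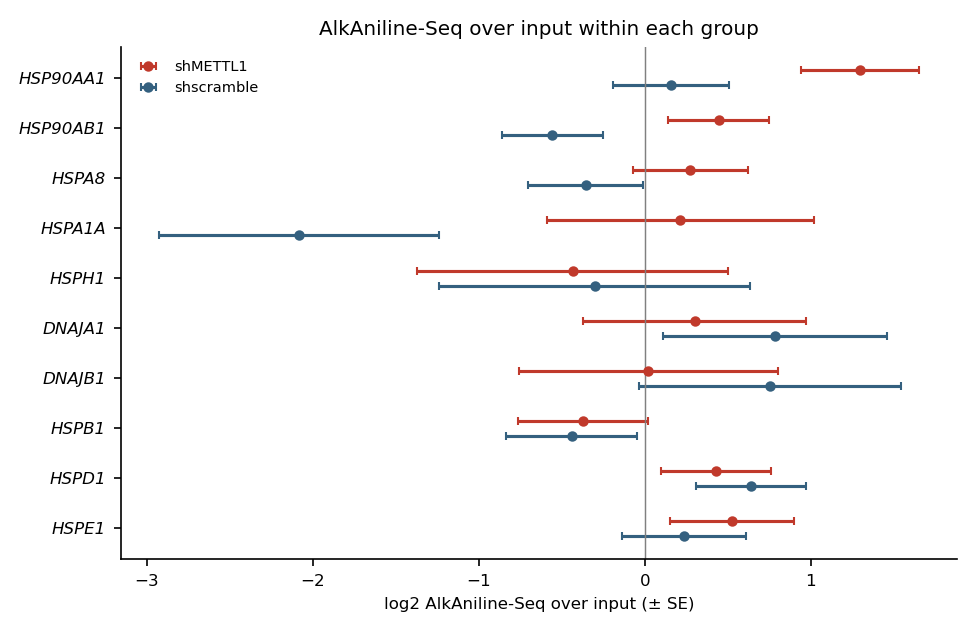
Log2 AlkAniline-Seq over input with its SE (horizontal axis) for each gene, within shMETTL1 in red above and within shscramble in blue below. HSP90AA1 stands at 1.30 in shMETTL1 and 0.16 in shscramble, the second value becoming 0.91 without shscramble replicate 2, and HSPA1A at 0.21 in shMETTL1 and -2.09 in shscramble.

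The reads of HSP90AA1 were stacked at few positions. Its deepest position held 4951, 4272 and 3565 AlkAniline-Seq reads in shMETTL1 and 1810, 2799 and 704 in shscramble, which was 30.9% to 37.6% of the gene's reads in shMETTL1 libraries and 24.0% to 35.0% in shscramble libraries. The reads starting there made up 74.8%, 87.3% and 76.1% of the coverage in shMETTL1 and 70.5%, 84.9% and 73.7% in shscramble. In the input the share of coverage was 67.0% to 79.3% in shMETTL1 and 76.0% to 84.6% in shscramble. The same position held 14.9%, 8.96% and 14.7% of the gene's input reads in shMETTL1 and 15.6%, 26.7% and 9.61% in shscramble, less than in the AlkAniline-Seq libraries except that shscramble input replicate 2 lay above shscramble AlkAniline-Seq replicate 3. The log2 fold change at this position was 1.24 (SE 0.33, edgeR unadjusted p = 0.00253, adjusted p = 0.315 over 13973 positions).

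Among the AlkAniline-Seq libraries, other HSP90AA1 positions were read mostly in shMETTL1. One held 52, 96 and 156 AlkAniline-Seq reads in shMETTL1 and 1, 0 and 1 in shscramble, beside 2, 25 and 22 input reads in shMETTL1 and 2, 0 and 0 in shscramble. Another held 88, 120 and 189 AlkAniline-Seq reads in shMETTL1 and 6, 5 and 1 in shscramble, beside 36, 17 and 61 input reads in shMETTL1 and 30, 0 and 1 in shscramble. A further one held 16, 60 and 30 in shMETTL1 and none in the 3 shscramble AlkAniline-Seq libraries, beside 9, 0 and 0 input reads in shMETTL1 and 12, 1 and 0 in shscramble. The input reads at the first 2 of these were thus also mostly in shMETTL1. At the first position the AlkAniline-Seq coverage was 500, 913 and 828 in shMETTL1 and 129, 244 and 117 in shscramble, so the shscramble libraries did read through it. The opposite was seen in the mitochondrial pair, where 1 HSPE1 position held no read in any shMETTL1 AlkAniline-Seq library and 10, 48 and 38 in shscramble, beside 12, 0 and 1 input reads in shMETTL1 and 0, 0 and 0 in shscramble. An HSPD1 position held 0, 0 and 1 AlkAniline-Seq reads in shMETTL1 and 43, 11 and 23 in shscramble, with 1 input read in all. An HSPA8 position held 1, 0 and 0 AlkAniline-Seq reads in shMETTL1 and 11, 14 and 24 in shscramble, beside 25, 7 and 9 input reads in shMETTL1 and 59, 0 and 0 in shscramble. These positions were picked for their unadjusted p, and edgeR's adjusted p was at least 0.315 for each.

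Of the positions of the 10 genes, 130 had enough reads to be tested. HSP90AA1 had 45, of which 35 were above 0 with a median log2 fold change of 1.01. HSP90AB1 had 23, of which 20 were above 0 with a median of 0.96, and HSPA8 had 21, of which 15 were above 0. HSPD1 had 4 of 14 above 0 with a median of -0.95, and HSPE1 had 4 of 12 with a median of -0.63. The median over all positions tested was 0.02. The read filter needed enough reads in only as many libraries as a group holds, so positions read in a single group could enter. Among positions read in all 6 libraries, 21 of 30 HSP90AA1 positions were above 0, and 50 of 75 over the 10 genes. With the replicate block 29 of 45 HSP90AA1 positions were above 0, and 70 of 130 over the 10 genes. The position values compare reads and are not set against coverage or input. Positions of 1 gene share its RNA and are not independent of each other or of the gene's total.

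At an unadjusted p under 0.05 there were 5 of 130 positions higher, all in HSP90AA1, and 4 of 130 lower, in HSPE1 (2), HSPA8 and HSPD1, where 1.88% and 6.32% of all positions were called. No position passed edgeR's adjusted threshold, in these genes or elsewhere (0%). DESeq2 called 3 HSP90AA1 positions higher and 1 HSPE1 position lower, with 5.1% of all positions called, and edgeR with a replicate block called 1 HSP90AA1 position, with 0.0429% called. Without shscramble replicate 3, edgeR called 16 of 230 chaperone positions, 1 higher and 15 lower, but it then called 19% of all positions. These 16 lay in HSP90AA1, HSP90AB1, HSPA8, HSPD1, HSPE1 and DNAJA1, and the lower ones included positions of both HSP90 genes. In that fit 61 of 82 HSP90AA1 positions were above 0. Without shscramble replicate 1, where 0.0143% of all positions were called, it called none of 198 chaperone positions, and 51 of 66 HSP90AA1 positions were above 0. HSPA1A and DNAJB1 had no position with enough reads. AlkAniline-Seq reads of HSPA1A lay at 41 positions, of which 32 had reads in a single library and none in all 6, so its higher total in shMETTL1 came from different positions in different libraries.

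**Figure D4:**
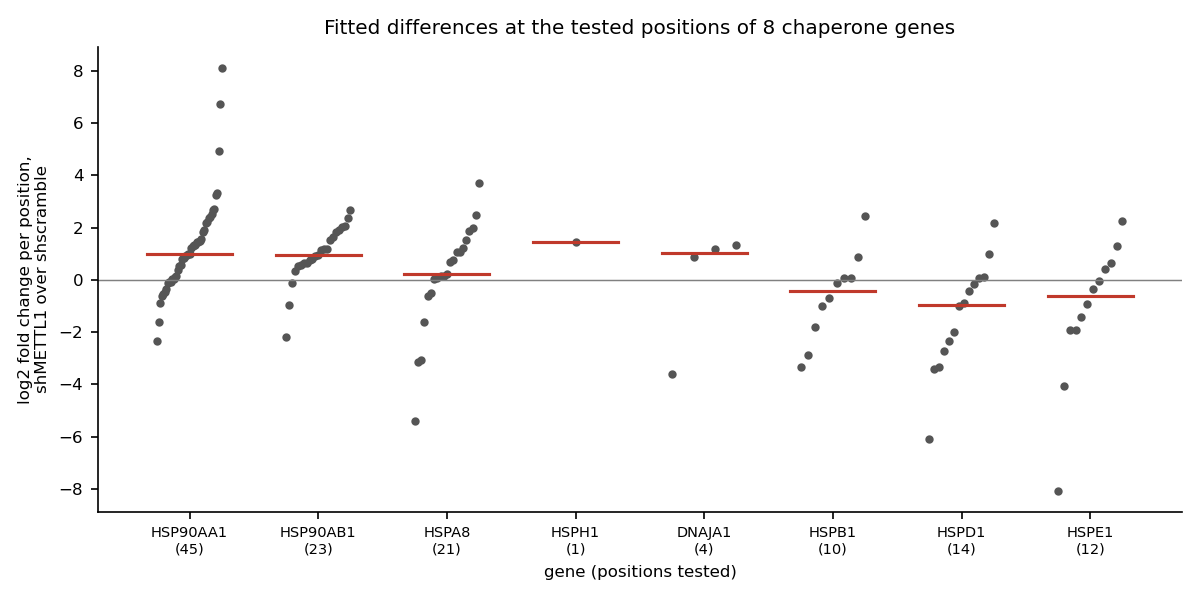
Log2 fold change of AlkAniline-Seq reads, shMETTL1 over shscramble (vertical axis), at each tested position of the 8 genes with one. Points are sorted within a gene, and a red line gives the gene's median. Positions read in a single group could enter the test. The medians of HSP90AA1 (1.01) and HSP90AB1 (0.96) lie above 0 and those of HSPD1 (-0.95) and HSPE1 (-0.63) below it.

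The deposited fold of a position sets its fraction of reads over coverage against the input fraction. How the study's thresholds enter its own calls is not given in the sources used here, so as a choice made here a fold change of 1.5 between the groups at an unadjusted p of 0.05 was applied to each position with the methods' t-test. Where a group's mean fold was 0, 1 was added to both means before the ratio was taken. These settings took 4 chaperone positions as higher and 10 as lower out of 1194 with a fold. Of all positions, 0.203% were higher and 1.05% lower. HSPD1 gave 4 of the lower positions and HSP90AB1 gave 2, and the higher ones were 2 in DNAJA1 and 1 each in HSP90AA1 and HSPA8. Some rested on single reads. A DNAJA1 position held 160, 1 and 1 reads in shMETTL1 and 1, 0 and 0 in shscramble, yet its fold was 2.0 in every shMETTL1 library. An HSPB1 position had more reads behind it in shscramble, with 5, 1 and 1 reads in shMETTL1 and 34, 20 and 11 in shscramble. A limma test on the log2 of the fold called 1 of 398 chaperone positions higher and 4 of 398 lower after adjustment. It called 4.86% of all positions.

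A gene's AlkAniline-Seq reads can also be set against the reads that cover its positions. HSP90AA1 reads were 4.58%, 5.16% and 5.44% of coverage in shMETTL1 and 4.71%, 4.44% and 3.25% in shscramble, and the groups overlapped. HSP90AB1 reads were 3.47%, 3.97% and 5.03% of coverage in shMETTL1 and 5.06%, 4.0% and 6.47% in shscramble, so this share was lower on average in the group with more reads. For both genes the AlkAniline-Seq coverage itself was higher in every shMETTL1 library. Coverage was scaled to 1000000 over a library's gene IDs, without trimmed-mean factors. On that scale HSP90AA1 had an AlkAniline-Seq coverage of 7317, 5484 and 5962 in shMETTL1 and 4724, 4849 and 4194 in shscramble. Its input coverage was 3862, 2496 and 3819 in shMETTL1 and 2534, 2123 and 2174 in shscramble. These input groups overlapped, with means of 3392 in shMETTL1 and 2277 in shscramble. HSP90AB1 input coverage also overlapped, at 817, 764 and 913 in shMETTL1 and 778, 664 and 603 in shscramble. HSPA8 had an AlkAniline-Seq coverage of 2384, 1920 and 1859 in shMETTL1 and 1517, 1137 and 1196 in shscramble. Its input coverage was likewise higher in every shMETTL1 library, at 1772, 1502 and 1815 in shMETTL1 and 914, 1049 and 867 in shscramble.

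Scaled AlkAniline-Seq coverage was higher without overlap for 5 of 10 genes (HSP90AA1, HSP90AB1, HSPA8, HSPA1A and DNAJA1) and lower for HSPB1, where 7.05% of gene IDs were higher and 9.25% lower. In the input it was higher without overlap for 3 of 10 (HSPA8, HSPH1 and HSPD1) and lower for 0, where 12% of gene IDs were higher and 3.32% lower. The percent of AlkAniline-Seq coverage was higher without overlap only for HSPA1A and lower only for HSPE1, where 5.14% of gene IDs were higher and 7.15% lower. HSPE1 reads were 4.25%, 3.89% and 4.18% of coverage in shMETTL1 and 5.49%, 5.29% and 4.92% in shscramble, means of 4.11 ± 0.19% in shMETTL1 and 5.23 ± 0.29% in shscramble (SD, n = 3 each, exact two-sided permutation test, p = 0.1, the smallest possible). HSPA1A reads were 19.6%, 18.7% and 41.3% of coverage in shMETTL1 and 14.2%, 17.8% and 2.17% in shscramble, and its groups overlapped once positions with a coverage under 10 were left out. In the input, HSPD1 reads were 5.12%, 5.75% and 5.38% of coverage in shMETTL1 and 4.34%, 3.20% and 4.19% in shscramble, again without overlap. DNAJB1 input reads were 4.16%, 5.57% and 3.90% of coverage in shMETTL1 and 1.64%, 0.996% and 3.81% in shscramble. These 2 of 10 genes were higher without overlap in the input and 0 were lower, where 7.41% of gene IDs were higher and 3.48% lower.

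**Figure D5:**
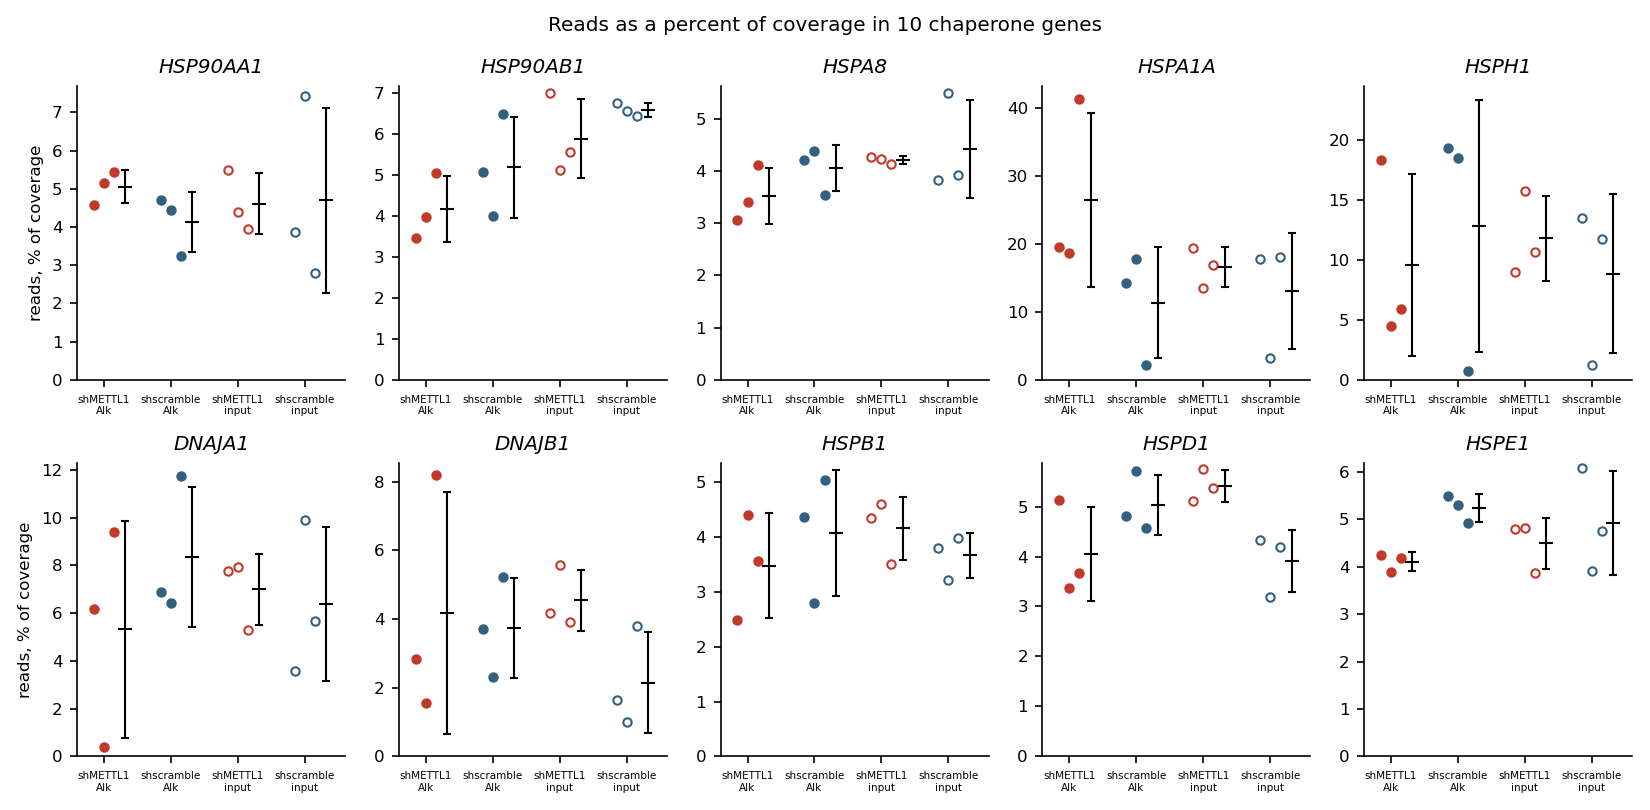
Reads at positions as a percent of the coverage summed over the same gene (vertical axes, each from 0), with AlkAniline-Seq libraries as filled and input libraries as open points, shMETTL1 in red and shscramble in blue, and the mean and SD of 3 libraries as bars. The 3 shMETTL1 AlkAniline-Seq points of HSPE1 (3.89% to 4.25%) lie below the 3 shscramble points (4.92% to 5.49%), while the HSP90AA1 groups overlap.

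Among 4742 gene IDs with at least 10 reads in each of the 12 libraries, the one whose log2 CPM followed the mean standardised profile of the chaperones most closely was ENSG00000125818, with a Pearson r of 0.92, followed by ENSG00000005007 with 0.91. The profile used the 8 members that met the same minimum, so HSPA1A and HSPH1 were not in it. These 8 members did not share a profile. Over the 6 AlkAniline-Seq libraries, Pearson r between pairs of them ran from -0.79 (DNAJB1 and HSPD1) to 0.96 (HSP90AA1 and HSPA8). The libraries come from 4 kinds that share scaling and depth, and the files give these IDs no name.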

How the data were processed

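Internal m7G of mRNA was mapped in 6 AlkAniline-Seq libraries with 6 inputs. The authors deposited, per position, the count of reads, the coverage (signal of reads crossing it), their fraction, and the ratio of that fraction to the input's. Tools listed in the submitters' processing notes were cutadapt 1.9.1, bedtools 2.24 and Bowtie2 2.2.4, with hg19. For read filters, strand use and multi-mapping reads, the method is not given in the sources used here. Positions carry a gene ID and no coordinate. Counts were summed per gene ID and tested with edgeR 4.0.16 in R 4.3.3 (trimmed-mean scaling, filterByExpr at min.count 10 and min.total.count 15, quasi-likelihood test, Benjamini-Hochberg adjustment over all features). SEs were the log2 fold change divided by the root of F. DESeq2 1.42.0, limma 3.58.1 (log2 of the fold plus 1), the methods' t-test, library size alone, no filter, a replicate block, removal of each gene's deepest position and of single replicates were alternatives. Each AlkAniline-Seq library is paired with its input in the deposited tables; the deviations of same-numbered libraries from their group means correlated at -0.003 to 0.03. The scripts were tested on simulated data. The 10 genes were taken by Ensembl ID with the symbols listed for those IDs, and the features named are those 10, their deepest positions, positions with a small p and the most similar gene IDs. The members and lists were chosen with earlier results of these data known. Planned lists of chaperone partners and prostate markers could not be tied to IDs and were not analysed here. Scaled coverage was added after seeing the data.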

Additional observations from a re-analysis of the deposited data

How the results depend on the processing

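Of the 10 genes, HSP90AA1, HSP90AB1, HSPA8, HSPA1A and HSPH1 kept AlkAniline-Seq values above 0, shMETTL1 over shscramble, under all 11 alternatives run, and HSPB1 and HSPE1 kept values below 0. Counts of called features moved more, and the cause was not tested. For AlkAniline-Seq reads per gene, 1 gene ID was called in the edgeR fit, 178 by DESeq2, 2 with library size alone, 19 without the filter, 3 with the replicate block and 0 without each gene's deepest position, and 0 to 3 when single replicates were left out. For input reads the count was 0, against 35 by DESeq2, 95 without the filter and 2 with the block. For AlkAniline-Seq over input the count was 1, against 96 by DESeq2, 31 without the filter and 0 without the deepest position, and 0 to 1 without single replicates. For positions it was 0, against 713 by DESeq2, 3019 by limma, 5051 by the methods' t-test, 6 with the block and 1 among positions read in all 6 libraries. Leaving out single replicates gave 3 to 5644 called positions, and the 5644 came without shscramble replicate 3, against 27 or fewer without any other. Within shMETTL1 the count of 27 became 112 by DESeq2, 57 with library size alone and 69 with the block, and 1 to 82 without single replicates, the 1 whenever a shMETTL1 replicate was left out and the 82 without shscramble replicate 2. Within shscramble the count of 82 became 569 by DESeq2 and 17 to 75 without single replicates, the 17 without shscramble replicate 1. The 2 genes whose percent of coverage did not overlap became 1 with a coverage minimum of 10 and 2 to 5 without single replicates.

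No reversed value below had passed a test. With the replicate block, DNAJA1 AlkAniline-Seq reads were at -0.49 and HSP90AA1 input at 0.19; the shMETTL1 and shscramble libraries share only a number, since the same-numbered deviations correlated at -0.025 to 0.051. Without each gene's deepest position, DNAJB1 AlkAniline-Seq reads were at -0.27, input reads of HSPA8 at -0.95 and of HSPD1 at -0.083, and HSPD1 over input at 0.027. With library size alone, input reads of HSP90AA1 were at 0.41 and of HSPB1 at 0.0032, and over input HSPA8 was at -0.073, HSPB1 at -0.46 and HSPE1 at -0.25. DESeq2 put HSPA8 input at -0.20 and HSP90AA1 over input within shscramble at -0.00085, and without the filter HSPB1 over input was at -0.038. Leaving out single replicates turned the sign of AlkAniline-Seq reads of DNAJA1 (-0.29 to 0.68), DNAJB1 (-1.08 to 1.06) and HSPD1 (-0.13 to 0.26) and of input reads of HSP90AA1 (-0.45 to 0.70) and HSPA8 (-0.11 to 0.80). It also turned the sign over input of HSPA8 (-0.11 to 0.87), HSPH1 (-0.83 to 0.58), DNAJA1 (-0.89 to 0.048) and HSPB1 (-0.13 to 0.30), and of HSP90AA1 within shscramble (-0.067 to 0.91).

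Groups of 3 libraries and few reads limit these values most for HSPA1A, HSPH1, DNAJB1 and DNAJA1. Scaling moved the median log2 fold change of all gene IDs between 0.07 and -0.02 in AlkAniline-Seq reads, between -0.04 and 0.22 in input reads, and between 0.24 and -0.28 over input. Counts of reads without molecular identifiers are not counts of independent molecules.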
